A study of Mus musculus with 21 samples.

Results

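Gene expression in the cerebral cortex of 5 mice that carried a transgene for human TDP-43 with a defective nuclear localization signal, together with the tTA transgene that switches it on, was compared with that of 6 nontransgenic mice of the same line. These 11 mice are all arrays of the series titled tTA/TDP-DeltaNLS and all arrays titled Non-transgenic whose line is NLS4, out of 21 arrays in all, with 1 array for each mouse. The first group is called dNLS bigenic below. It had both transgenes and held 4 males and 1 female by label, and the nontransgenic group had neither transgene and held 4 males and 2 females. Both groups were of a mixed C57BL/6J x C3HeJ background, both came from line NLS4, and both had been off doxycycline, the drug that keeps tTA inactive, for 2 weeks. Of the other 10 mice, the 2 nontransgenic mice of line WT12 were left out of the comparison. The 4 WT bigenic mice carry tTA and wild-type human TDP-43, and the 4 dNLS monogenic mice lack tTA but have the mutant TDP-43 transgene. Values of the WT bigenic and dNLS monogenic mice are set beside those of the 2 groups compared. All 10 of these other mice also entered the fit as groups of their own and share its estimates of spread and of the sex effect.

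TDP-43 is an RNA-binding protein of the hnRNP family that normally lies in the nucleus, where it takes part in splicing, in the choice of polyadenylation sites and in the control of its own transcript. In amyotrophic lateral sclerosis and in a form of frontotemporal dementia it is lost from the nucleus of affected neurons and found in the cytoplasm, which is the state that removal of the nuclear localization signal imitates. The labels give neither the promoter that drives tTA nor the age of the mice, and in the published mice of this study the Camk2a promoter drives tTA in excitatory neurons of the forebrain. No group carried tTA alone, so an effect of tTA and an effect of mutant TDP-43 cannot be told apart in the comparison with nontransgenic mice. The tissue is a mixture of neurons, glia and vessels, and the values are averages over all of these cells.

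Levels are log2 values of Affymetrix MOE430A 2.0 probe sets as deposited, so a difference of 1 is a change of 2-fold. On all 11 arrays, 2983 of the 12393 genes sat at the smallest value of the table, 2.04, and no change can be seen in those genes. The arrays had medians of 5.76 to 6.02. The difference between the 3′ and 5′ control probe sets of beta-actin, a measure of RNA degradation or truncated copies, was 1.34 to 2.30 in the dNLS bigenic arrays and 1.47 to 8.20 in the nontransgenic arrays. The two-sided exact permutation test over the 462 splits gave p = 0.0736 (adjusted p = 0.127), and the smallest p it can give is 0.00216. Nontransgenic 4, at 4.70, and nontransgenic 6, at 8.20, stood apart on this measure, and nontransgenic 6 also stood apart on the first principal component, which took 54.9% of the variance. Nontransgenic 1, at 2.53, and nontransgenic 2, at 3.27, also lay above every dNLS bigenic array. For Gapdh, the 3′ minus middle difference was 0.42 to 0.47 in the dNLS bigenic and 0.45 to 1.82 in the nontransgenic arrays. Its exact permutation p was 0.0411 (adjusted p = 0.127). Without nontransgenic 4 and 6 the nontransgenic arrays still reached 0.68, so leaving them out does not remove the difference. Results without nontransgenic 4 and 6 are therefore given beside many of those with all arrays, but not for every gene whose value differed. Nontransgenic 1 is labelled male and read as female. The labels number the arrays 1 to 5 in the dNLS bigenic group and 10 to 15 in the nontransgenic group, so anything that follows this order cannot be told apart from the genotype. The p-values measure the spread between mice as labelled.

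The gene for TDP-43 itself, Tardbp, was read by 4 probe sets that did not move together. The probe set of highest mean, which stands for the gene in all counts, read 10.98, 11, 11.01, 10.79 and 10.73 in the dNLS bigenic mice and 10.89 to 11.18 with a median of 11.07 in the nontransgenic mice. The groups overlapped, and the difference was -0.18 ± 0.06 (log2, ± standard error of the limma fit, adjusted p = 0.029). That call was lost without dNLS bigenic 4 (adjusted p = 0.0812) or 5 (0.11), without nontransgenic 2 (0.0646) or 3 (0.0627), and after each array was centred on its median (0.297). Probe set 1423723_s_at read 9.56, 9.53, 9.62, 9.56 and 9.38 in the dNLS bigenic mice and 10.59 to 11.07 in the nontransgenic mice. It fell by 1.29 ± 0.09 with no overlap (adjusted p = 7.00e-08 over all probe sets). Probe set 1434419_s_at moved the other way, from 5.10 to 5.99 in the nontransgenic mice to 6.06 to 7.10 in the dNLS bigenic mice, a rise of 1.16 ± 0.19 (adjusted p = 0.000392). Probe set 1455655_a_at differed by -0.27 ± 0.23 (adjusted p = 0.49). The Tardbp transcript is known for long and short 3′ ends that TDP-43 regulates, and which transcripts each probe set reads, and whether any reads the human transgene, was not tested.

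Of the 12393 genes, 2980 (24%) passed an adjusted p of 0.05, of which 1415 (11.4%) were higher and 1565 (12.6%) lower in the dNLS bigenic cortex. At least a 2-fold difference was seen in 228 of the higher and 272 of the lower genes. The values of the 2 groups did not overlap at all in 920 genes (7.42%) that were higher in every dNLS bigenic mouse and in 845 genes (6.82%) that were lower in every one. Of the genes past the threshold, 871 of the higher and 811 of the lower were also without overlap. Most genes named below were chosen by the size or t of these same differences, so their lack of overlap is not further support. Without nontransgenic 4 and 6, 1518 genes (12.2%) were higher and 1488 (12%) lower, and 2489 genes passed in the same direction in both fits. Centring each array on its median gave 1433 higher (11.6%) and 1420 lower (11.5%), with 2621 genes shared. The median difference over all genes was 0 as deposited and 0.04 after centring. Fitting only the 11 arrays, with fewer mice behind the estimate of spread, left 906 higher (7.31%) and 935 lower genes (7.54%), and weighting each array by its quality gave 2066 (16.7%) and 2314 (18.7%). Many list counts below moved by more than 1.5 times under these or other fits, and the larger of these moves are given beside them.

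The share of genes past the threshold depended on level. Among the 4791 genes with a mean under 4, 2.05% were higher and 1.4% lower. Among the 2774 genes with means of 10 to 12, 20% were higher and 20.4% lower, and the median size of a called difference was 0.46. Above 12, the 1135 genes included 16.7% higher and 27.6% lower, and the median size was 0.30. Of the 1513 called genes with a further probe set, 594 (39.3%) had another that passed in the same direction and 36 had one that passed in the opposite direction.

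Tnfrsf12a, Pmaip1 and Cast were among the 12 largest increases. Tnfrsf12a, the receptor for the cytokine TWEAK, read 7.32, 6.50, 7.09, 6.42 and 6.78 in the dNLS bigenic mice and 3.35 to 4.51 with a median of 3.46 in the nontransgenic mice. Every dNLS bigenic mouse was above every nontransgenic mouse, of which nontransgenic 4 was the highest. The difference was 3.18 ± 0.28, a 9.03-fold rise (adjusted p = 8.11e-07), and its second probe set rose by 3.41. Pmaip1, which encodes the pro-apoptotic protein Noxa, read 9.19, 7.77, 8.45, 7.40 and 7.48 in the dNLS bigenic mice against 3.91 to 5.82 with a median of 5.37 in the nontransgenic mice. No value overlapped, and dNLS bigenic 1 was the highest. Its difference was 3.07 ± 0.61 (adjusted p = 0.00155). Cast, the calpain inhibitor calpastatin, read 7.49, 5.34, 5.46, 6.84 and 5.44 against 2.95 to 4.90 with a median of 3.91 with dNLS bigenic 1 and 4 above the other 3, and rose by 2.30 ± 0.41 (adjusted p = 0.000553).

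Zfp54, Dach2, Rpp40 and Etaa1 also belonged to these 12. Zfp54, a zinc finger protein, lay near the lowest value in the nontransgenic mice, at 2.06 to 2.84 with a median of 2.09, and read 6.11, 4.85, 4.97, 5.82 and 4.41 in the dNLS bigenic mice. All 5 dNLS bigenic mice were above all 6 controls (log2 difference 2.96 ± 0.24, adjusted p = 3.56e-07). Dach2, a transcriptional cofactor of the dachshund family, read 6.51, 4.80, 5.11, 5.56 and 5.39 against 2.04 to 5.29 with a median of 2.18 in the controls. The overlap came from nontransgenic 6 alone, at 5.29. The difference was 2.87 ± 0.46 with that array and 3.30 without nontransgenic 4 and 6. Rpp40, a subunit of ribonuclease P, read 6.24, 5.81, 6.50, 6.31 and 6.46 in the dNLS bigenic mice and 3.11 to 3.56 in 5 of the nontransgenic mice, but 7.25 in nontransgenic 6. Its difference was 2.35 ± 0.52 (adjusted p = 0.00326) and 2.83 without the 2 arrays. Etaa1, an activator of the replication stress kinase ATR, read 7.64, 7.27, 7.68, 7.52 and 7.80 against 4.34 to 6.06 with a median of 5.17 and rose by 2.42 ± 0.26 without overlap (adjusted p = 5e-06).

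Cars, Mettl27 and Hilpda were 3 more of them. Cars, the cysteinyl-tRNA synthetase, read 8.38, 8.63, 8.61, 8.56 and 8.21 against 5.41 to 6.99 with a median of 6.15 and stood apart in every mouse, with a 5.1-fold difference (2.35 ± 0.33 on the log2 scale, adjusted p = 7.39e-05). Mettl27, a methyltransferase-like protein, read 6.08, 5.40, 5.65, 4.82 and 4.83 against 2.05 to 2.73 with a median of 2.59 and differed by 2.81 ± 0.28 (adjusted p = 2.58e-06). Hilpda, a lipid droplet protein induced by hypoxia, was at 7.26, 7.24, 7.53, 7.56 and 7.06 against 4.68 to 5.81 with a median of 5.06, a difference of 2.24 ± 0.24 (adjusted p = 5.03e-06). The groups did not overlap for either gene.

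Clcn5 and Tmem192 depended on the arrays that stood apart. Clcn5, a chloride and proton exchanger of endosomes, read 10.06, 9.76, 9.84, 9.72 and 9.38 in the dNLS bigenic mice and 3.78 to 9.28 with a median of 7.94 in the nontransgenic mice, where nontransgenic 6 was the lowest. All dNLS bigenic values were above all controls, the highest control at 9.28 lying close below the lowest of them. Its difference was 2.30 ± 0.68 (adjusted p = 0.0215), was 1.33 without nontransgenic 4 and 6, and was not past the threshold when only the 11 arrays were fitted (adjusted p = 0.128). The call was also lost with nontransgenic mice of both lines as controls (adjusted p = 0.0705). The mean of Clcn5 was 9.225 in the nontransgenic mice of line WT12 and 9.34 in the WT bigenic mice. Tmem192, a membrane protein of lysosomes, read 8.45, 8.43, 8.24, 8.15 and 8.02 against 3.09 to 6.95 with a median of 6.58, again with nontransgenic 6 the lowest and no overlap. Its difference was 2.28 ± 0.50 with and 1.5 without the 2 arrays (adjusted p = 0.00329 and 5.57e-06).

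The largest decrease of all was in Spag5, which encodes the mitotic spindle protein astrin. It read 4.10, 4.43, 3.49, 3.39 and 5.05 in the dNLS bigenic mice and 8.27 to 9.49 with a median of 9.11 in the nontransgenic mice, and the highest dNLS bigenic value lay far below the lowest control. The difference was -4.93 ± 0.31, or 30.5-fold (adjusted p = 5.3e-08). Ddit4l, an inhibitor of mTOR signalling, read 7.97, 8.50, 7.61, 6.31 and 6.80 against 10.58 to 11.23 with a median of 10.97 and fell by 3.55 ± 0.31 on the log2 scale (adjusted p = 9.5e-07). Egr2, an immediate early transcription factor, varied widely within the dNLS bigenic group, at 9.70, 6.53, 8.16, 5.71 and 4.74, against 8.93 to 11.79 with a median of 11.44. Mouse dNLS bigenic 1 overlapped the lowest control, nontransgenic 5. The difference was -4.12 ± 0.67 (adjusted p = 0.00028), and the second probe set of the gene differed by -4.45.

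Smoc2, Abi3bp, Susd2, Tchh and Prr15 were 5 more of the 12 largest decreases. Smoc2, a secreted calcium-binding matrix protein, read 4.71, 3.96, 3.87, 4.45 and 4.37 against 7.14 to 7.92 with a median of 7.63. These values were narrow in both groups and far apart, with a difference of -3.30 ± 0.22 (adjusted p = 8.3e-08). Abi3bp, another matrix protein, was at 2.95, 3.82, 3.70, 6.18 and 5.78 against 7.08 to 9.58 with a median of 7.61, with dNLS bigenic 4 and 5 above the other 3 but below every control (-3.48 ± 0.64, adjusted p = 0.000782). Susd2, a membrane protein with a sushi domain, read 2.30, 2.31, 2.09, 2.35 and 2.31 against 4.66 to 7.31 with a median of 6.00 and was near the lowest value in every dNLS bigenic mouse (-3.74 ± 0.40, adjusted p = 6.41e-06). Tchh, trichohyalin, a structural protein best known from hair follicles, read 2.96, 2.54, 3.09, 3.36 and 3.53 against 5.67 to 8.44 with a median of 6.57 without overlap (-3.58 ± 0.43, adjusted p = 2e-05). Prr15, a proline-rich protein, read 3.62, 3.87, 4.54, 3.55 and 5.52 against 4.77 to 10.18 with a median of 7.13, and its nontransgenic values were highest in nontransgenic 4 and 6. It overlapped through dNLS bigenic 5 and nontransgenic 5, its difference was -3.13 ± 0.82, and it was -2.04 without nontransgenic 4 and 6 (adjusted p = 0.0102 and 0.0304). With only the 11 arrays fitted its adjusted p was 0.0689.

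**Figure D1:**
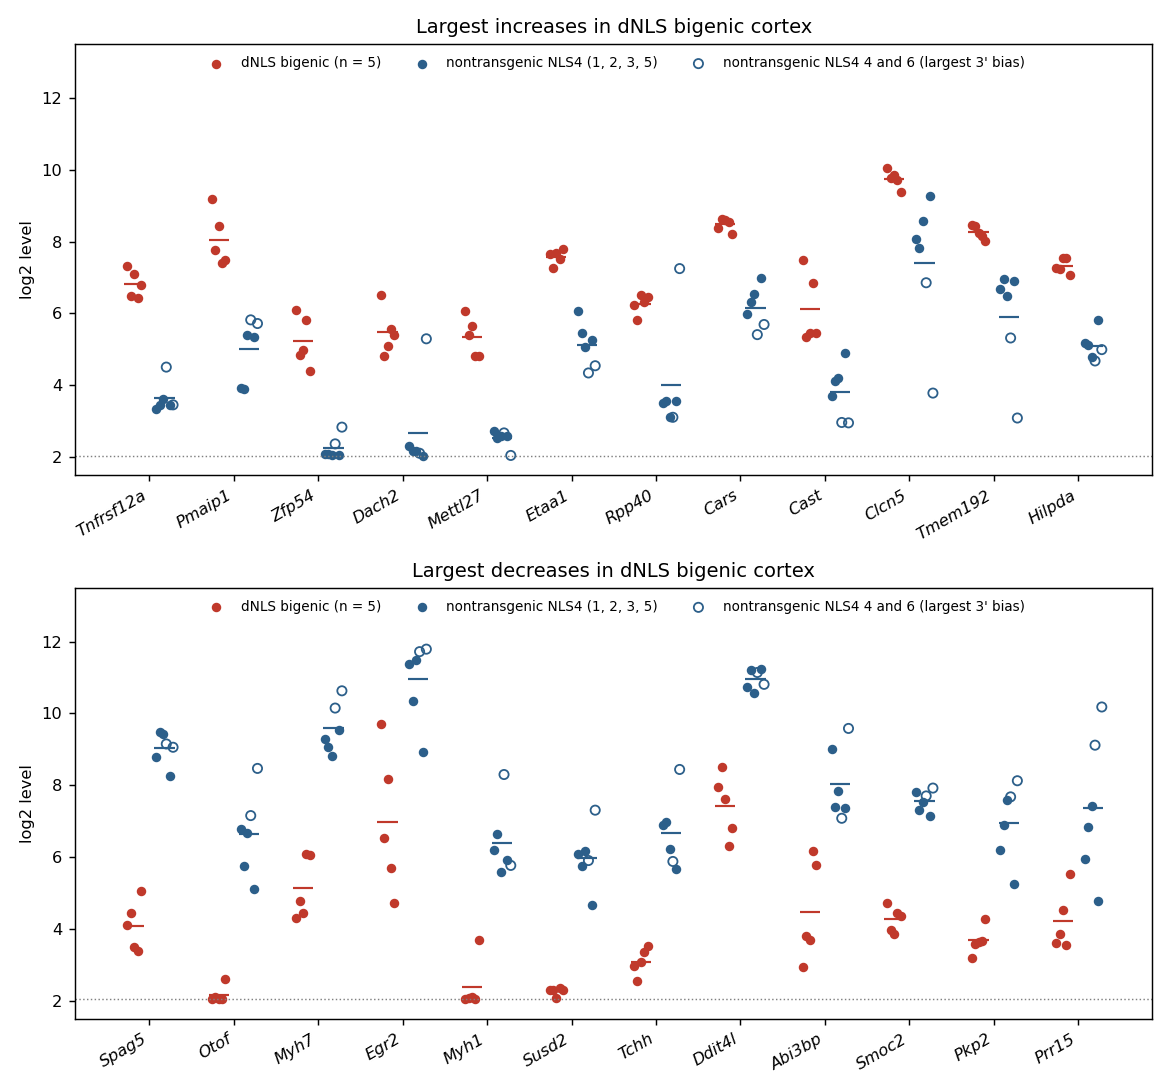
The log2 level of the 12 largest increases (upper panel) and 12 largest decreases (lower panel) is plotted for each array, with dNLS bigenic arrays in red, nontransgenic arrays in blue, open circles for nontransgenic 4 and 6, a bar at each group mean and a dotted line at the lowest value of 2.04. Spag5 lies at 3.39 to 5.05 in the dNLS bigenic mice and 8.27 to 9.49 in the nontransgenic mice, and the single high nontransgenic point of Dach2 and of Rpp40 is nontransgenic 6.

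Otof, Myh7, Myh1 and Pkp2, best known from hair cells, muscle or heart, were the other 4 of the 12 largest decreases. Otof, the calcium sensor otoferlin of hair cell synapses, read 2.04, 2.10, 2.04, 2.06 and 2.62 in the dNLS bigenic mice, at or near the lowest value in 4 of them, and 5.12 to 8.47 with a median of 6.73 in the nontransgenic mice. The difference was -4.45 ± 0.51 (adjusted p = 1.21e-05). Myh7, the myosin heavy chain of slow and cardiac muscle, read 4.31, 4.77, 4.46, 6.08 and 6.05 against 8.83 to 10.63 with a median of 9.43, a fall of 4.32 ± 0.36 (adjusted p = 5.26e-07). Myh1, a fast skeletal myosin heavy chain, read 2.04, 2.07, 2.10, 2.04 and 3.69 against 5.58 to 8.30 with a median of 6.05 and was above the lowest value by more than a trace only in dNLS bigenic 5 (-3.99 ± 0.46, adjusted p = 1.25e-05). Pkp2, a desmosome protein of heart and epithelium, read 3.19, 3.59, 3.65, 3.68 and 4.29 against 5.26 to 8.13 with a median of 7.24 (-3.29 ± 0.52, adjusted p = 0.000234). In none of these genes did a dNLS bigenic mouse reach a nontransgenic one. Myosin heavy chain genes have close paralogs, and which paralog the probe sets read was not tested.

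A list of 32 muscle-type and hair-cell genes had 7 lower and 0 higher members (21.9% lower against 12.6% of all genes), with 12 at the lowest value on all 11 arrays and a median difference of -0.01 over the list. The list was chosen with earlier results of these data known, so its share of lower members is not independent support. Otof, Myh7, Myh1 and Pkp2, given above as leading decreases, are among the 7. The 3 others were Tnnc1, Ryr1 and Myl4, named here after their values were seen. Tnnc1, slow and cardiac troponin C, read 7.81, 8.03, 8.4, 7.70 and 7.91 against 10.08 to 11.07 with a median of 10.64 and differed by -2.61 ± 0.18 (adjusted p = 9.68e-08). Ryr1, the calcium release channel of skeletal muscle, differed by -1.80 ± 0.26 (adjusted p = 9.43e-05), from 8.41 to 9.21 in the nontransgenic to 6.55 to 7.67 in the dNLS bigenic mice. Myl4, an atrial myosin light chain, differed by -1.39 ± 0.23 (adjusted p = 0.000405), from 9.84 to 11.09 to 8.59 to 9.39. All 7 were thus measurably above the lowest value in the nontransgenic cortex, and none of the 7 overlapped between the groups, as in 6.82% of all genes. Against the WT bigenic mice 7 members of the list were lower, where 11.8% of all genes passed in either direction. Against the dNLS monogenic mice 7 were lower, where 14.9% of all genes passed. Those lower than in the WT bigenic mice were not all the same genes, as Otof did not pass there.

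By moderated t, which weighs a difference by its spread, the leading increases were differences between tight groups. Among those given first, their size ran from 0.34 in Rpl8 to 2.00 in Pdrg1. Rnf5, a ubiquitin ligase of the endoplasmic reticulum, read 11.14, 11.17, 11.23, 10.99 and 11.13 against 9.60 to 10.09 with a median of 9.66, and only nontransgenic 4 read above 10 among the controls. The difference was 1.41 ± 0.09 (adjusted p = 5.3e-08). Pdrg1, a subunit of a prefoldin-like chaperone complex, read 12.67, 12.59, 12.57, 12.87 and 12.46 against 10.43 to 11.03 with a median of 10.59 and rose by 2.00 ± 0.13 (adjusted p = 5.72e-08), with 2 further probe sets higher by 1.84 and 2.42. Crebrf, a regulator of the stress factor CREB3, differed by 0.72 ± 0.05, from 11.42 to 11.61 in the controls to 12.14 to 12.32 in the dNLS bigenic mice (adjusted p = 6.54e-08). Rpl8, a protein of the large ribosomal subunit, moved by only 0.34 ± 0.02, yet its controls spanned 12.50 to 12.54 and its dNLS bigenic values 12.83 to 12.90 (adjusted p = 9.68e-08). None of these overlapped, but they were chosen by t, and 7.42% of all genes were higher without overlap.

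Slc25a38, Hcn3, Plbd2, Tab3, Rassf1 and Zfp825 completed the 10 increases of largest t. Slc25a38, the mitochondrial glycine carrier, read 5.41, 5.30, 5.23, 5.11 and 5.26 against 3.23 to 3.54 with a median of 3.40 (1.86 ± 0.12, adjusted p = 8.3e-08). Hcn3, a hyperpolarization-activated channel, read 4.61, 4.81, 4.56, 4.02 and 4.96 against 2.05 to 2.65 with a median of 2.46 with nontransgenic 5 below the other controls (2.15 ± 0.15, adjusted p = 9.68e-08). Plbd2, a lysosomal protein, differed by 1.45 ± 0.10, from 7.94 to 8.25 to 9.48 to 9.63. Tab3, a partner of the kinase TAK1, differed by 0.97 ± 0.07, from 9.80 to 10.25 to 10.93 to 11.16. Rassf1, a Ras-association tumour suppressor, differed by 1.5 ± 0.11, and the zinc finger gene Zfp825 by 1.99 ± 0.13. The adjusted p of these last 4 was 1.08e-07, 9.68e-08, 1.12e-07 and 8.62e-08, and the groups did not overlap.

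Among the decreases with a large t, Lamp5, a membrane protein of the LAMP family that marks upper cortical layers, led. It read 11.56, 11.47, 11.33, 11.21 and 11.19 in the dNLS bigenic mice and 12.42 to 12.82 with a median of 12.67 in the nontransgenic mice, with a gap between the groups and a difference of -1.32 ± 0.07 (adjusted p = 1.55e-08). Tmem30a, the partner subunit of phospholipid flippases, read 11.88, 11.87, 11.93, 11.84 and 11.74 against 12.44 to 12.62 with a median of 12.51 (-0.68 ± 0.04, adjusted p = 1.55e-08). Calb1, the calcium buffer calbindin, read 11.87, 11.95, 11.97, 12 and 12.01 against 12.69 to 12.99 with a median of 12.88 (-0.90 ± 0.06, adjusted p = 5.3e-08). Cxcl12, a chemokine, read 8.32, 8.76, 8.85, 9.07 and 9.12 against 10.32 to 10.58 with a median of 10.35 and fell by 1.57 ± 0.10 (adjusted p = 8.3e-08). None of these 4 overlapped between groups, but they were chosen by t, and 6.82% of all genes were lower without overlap.

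Map2k1, Zmat2, Cadps2, Tmem191c and Itsn2 were also among the 10 decreases of largest t. Map2k1, the kinase MEK1, differed by -0.80 ± 0.05, from 12.73 to 12.97 in the controls to 11.90 to 12.09. Zmat2, a spliceosome protein, differed by -0.94 ± 0.06, from 11.89 to 12.15 to 10.88 to 11.12. Cadps2, which primes dense-core vesicles for release, differed by -0.67 ± 0.04, from 12.27 to 12.51 to 11.61 to 11.79, and Tmem191c by -0.80 ± 0.05. Their adjusted p was 5.3e-08, 5.51e-08, 8.3e-08 and 3.46e-08. Itsn2, a scaffold of endocytosis, differed by -0.68 ± 0.04 at its main probe set, from 11.23 to 11.42 to 10.60 to 10.77 (adjusted p = 4.77e-08), but by 0.70 in the opposite direction at another (adjusted p = 0.0489 over all probe sets). Its direction therefore holds for that main probe set only, and the mean of its probe sets differed by 0.07 (adjusted p = 0.68).

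A few called genes lay at the lowest value, within 0.01, on every array of 1 group. They were listed for that property after their values were seen, and no fold is given because the lowest value is a bound. Ngb, neuroglobin, was at 2.04 in all 5 dNLS bigenic mice and at 3.80 to 5.78 with a median of 4.29 in the nontransgenic mice. Myhas, a transcript of the skeletal myosin cluster, was at the lowest value in the dNLS bigenic mice and at 3.07 to 6.96 in the nontransgenic mice, and Slc16a11, a transporter of the monocarboxylate family, at 2.29 to 2.83. In the other direction, Cdsn, corneodesmosin, was at 2.04 in all 6 nontransgenic mice and at 3.63, 2.87, 3.07, 2.67 and 4.30 in the dNLS bigenic mice. Ccdc159, Eda, H3c4, Shc3 and Zfp60 were likewise at the lowest value in all nontransgenic mice, and in the dNLS bigenic mice they read 2.08 to 2.66, 2.10 to 2.55, 2.14 to 2.27, 2.06 to 2.37 and 2.22 to 3.52. H3c4 is 1 of many near-identical histone genes, so its identity is uncertain.

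Among the lists, the largest share of higher members was in the cytosolic tRNA synthetases, the enzymes that load amino acids onto tRNA, counted together with 3 proteins that hold them in a complex. Of 21 measured genes, 15 were higher and 0 lower (71.4% against 11.4% of all genes), the median difference was 0.51 against 0 over all genes, and 11 were without overlap (7.42% of all genes). Without nontransgenic 4 and 6 the counts were again 15 and 0. Besides Cars, the largest changes were in the synthetases for arginine, valine and lysine. Rars read 11.38, 11.24, 11.31, 11.24 and 11.19 against 9.70 to 10.69 with a median of 10.53 and rose by 0.84 ± 0.13 (adjusted p = 0.00017), and its lowest control by a wide gap was nontransgenic 6. Kars read 10.63, 10.59, 10.67, 10.62 and 10.67 against 9.71 to 10.25 with a median of 9.87 and rose by 0.75 ± 0.07 (adjusted p = 1.09e-06) without overlap. Vars, a dim probe set, read 4.23, 4.27, 3.80, 3.56 and 3.06 against 2.51 to 3.07 with a median of 3.06 and differed by 0.81 ± 0.22 (adjusted p = 0.0112), with dNLS bigenic 5 level with the controls.

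Amino acid synthesis and transport genes showed the same direction. Of 23 measured genes, 11 were higher and 0 lower (47.8% higher against 11.4% of all genes), with a median of 0.31, and 7 were higher with only the 11 arrays fitted. The count of 11 held without nontransgenic 4 and 6, and without dNLS bigenic 2 or nontransgenic 5 there were 1 and 2 lower members. Mthfd2, a mitochondrial enzyme of folate metabolism, read 8.87, 8.15, 8.4, 8.21 and 8.99 against 6.02 to 8.56 with a median of 6.73. The overlap came from nontransgenic 6, at 8.56, and the difference was 1.52 ± 0.36 with it and 2.04 without the 2 arrays (adjusted p = 0.00587 and 3.82e-05). Shmt1, which makes glycine from serine, differed by 1.08 ± 0.27 (adjusted p = 0.00753), from 4.32 to 5.80 to 4.68 to 6.54, with overlap through dNLS bigenic 4 and nontransgenic 6. With only the 11 arrays fitted, the adjusted p of these 2 genes was 0.0509 and 0.0513. The transporters Slc38a1, for glutamine, and Slc7a3, for arginine and lysine, rose by 0.97 ± 0.18 and 0.96 ± 0.15 (adjusted p = 0.000697 and 0.000186). Slc7a3 read 7.69, 7.52, 8.05, 8.09 and 8.15 against 6.73 to 7.06 with a median of 6.99, and neither transporter overlapped.

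Atf4 is the transcription factor of the integrated stress response, a programme in which slowed translation raises ATF4 protein and with it genes of amino acid supply. The main probe set of Atf4 read 13.10, 12.89, 13.11, 12.92 and 13.15 in the dNLS bigenic mice and 11.05 to 12.15 with a median of 12.02 in the nontransgenic mice. All dNLS bigenic values were above all controls, of which nontransgenic 6 was the lowest by a wide gap. The difference was 1.13 ± 0.15 with and 0.95 without nontransgenic 4 and 6 (adjusted p = 4.43e-05 and 6.72e-07). In the list of 21 ATF4 and integrated stress genes, 6 were higher and 0 lower (28.6% higher against 11.4% of all genes), with a median of 0.24 and 3 genes at the lowest value throughout. With only the 11 arrays fitted 3 were higher. Without nontransgenic 4 and 6, 7 were higher, and without nontransgenic 5, 1 was lower.

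The other members with large changes were transcription factors and a glutathione-degrading enzyme. Atf5, a relative of ATF4, read 9.17, 9.09, 9.23, 8.72 and 9.21 against 7.77 to 8.93 with a median of 8.01 and differed by 0.95 ± 0.18 (adjusted p = 0.000921), with overlap through nontransgenic 4 alone. Chac1, the glutathione-degrading enzyme, read 8.56, 7.46, 7.65, 7.5 and 8.19 against 5.82 to 8.56 with a median of 6.50 and overlapped through nontransgenic 6, at 8.56. Its difference was 1.2 ± 0.37 (adjusted p = 0.0247) and 1.57 without nontransgenic 4 and 6 (adjusted p = 0.000303). The call was lost without dNLS bigenic 1 (adjusted p = 0.071) or 5 (0.0615) or nontransgenic 3 (0.0581). Atf3, a stress-induced transcription factor, was near the lowest value in all controls, at 2.04 to 2.24, and in dNLS bigenic 2 and 4, and read 3.93, 3.17 and 4.27 in dNLS bigenic 1, 3 and 5. Its difference was 1.08 ± 0.30 (adjusted p = 0.0137), and the call was lost without dNLS bigenic 5 (adjusted p = 0.0692).

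**Figure D2:**
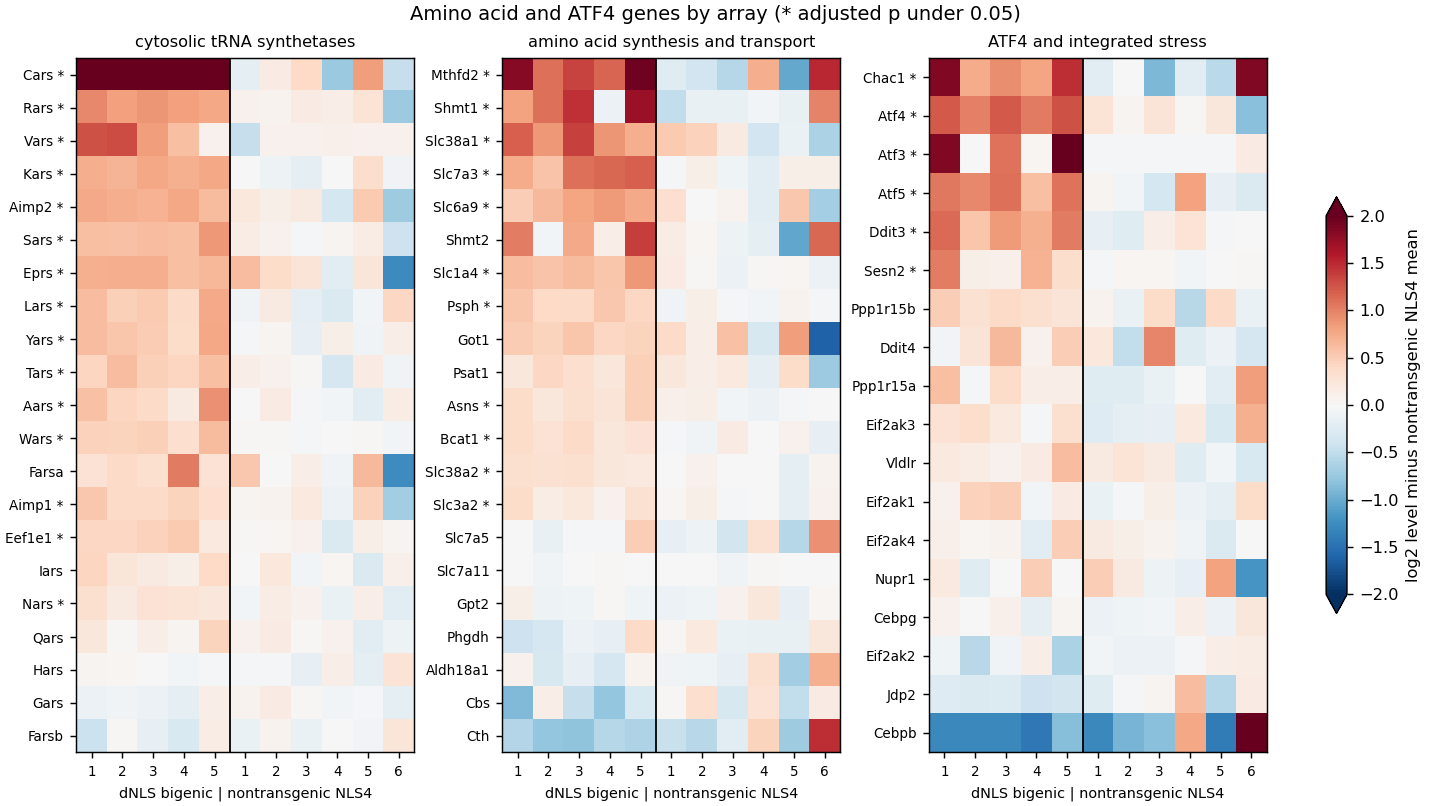
Colour gives the log2 level of each gene minus its mean in the nontransgenic mice, with arrays in columns (dNLS bigenic 1 to 5, then nontransgenic 1 to 6), genes of 3 lists in rows and an asterisk at an adjusted p under 0.05. Of the tRNA synthetase genes 15 of 21 carry an asterisk, and nontransgenic 6 stands out from the other controls in both directions.

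The letters TGATGNAA, a composite site for ATF4 and C/EBP factors, were searched on both strands of the 250 bases before each start (RefSeq, build GRCm38.p6). They were found for 3 of 14 tRNA synthetase genes with a promoter in the table, 3 of 18 amino acid genes and 6 of 20 genes of the ATF4 list, against 2.79% of the 9887 genes of the comparison that had a promoter (2.32% of 12566 promoters). Among genes that were higher in the dNLS bigenic cortex the share was 2.45% and among those that were lower 2.76%. The lists were chosen around ATF4 and amino acid supply, so their shares of matches are not independent of that choice. The cyclic AMP response element TGACGTCA was found for 2.53% of all genes, 3.55% of the higher and 3.9% of the lower. Of the 12 genes of these lists with a match, 5 were higher and 7 did not pass the threshold, which were Gars, Got1, Slc7a11, Fgf21, Jdp2, Nupr1 and Vldlr (adjusted p of 0.106 to 1). Of all genes 11.4% were higher, and of all measured members of the 3 lists 71.4%, 47.8% and 28.6%, with or without a match. The sequences around the match are shown for the 5 and, of the 7, for Gars, the glycyl-tRNA synthetase (-0.07 ± 0.08, adjusted p = 0.632). They were chosen for the match. The capitals mark the 8 matched letters, read 5′ to 3′ on the strand of the gene, and a match is a description of these letters only.
Aars at chr8:111033704-111033763, plus strand: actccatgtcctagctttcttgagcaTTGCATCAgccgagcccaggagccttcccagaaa
Tars at chr15:11399659-11399699, minus strand: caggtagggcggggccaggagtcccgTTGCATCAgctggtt
Asns at chr6:7693210-7693258, minus strand: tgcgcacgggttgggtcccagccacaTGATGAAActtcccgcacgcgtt
Atf3 at chr1:191183410-191183469, minus strand: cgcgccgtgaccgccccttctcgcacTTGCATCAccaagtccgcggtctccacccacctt
Chac1 at chr2:119351023-119351082, plus strand: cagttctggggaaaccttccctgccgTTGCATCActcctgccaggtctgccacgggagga
Gars at chr6:55037945-55038000, plus strand: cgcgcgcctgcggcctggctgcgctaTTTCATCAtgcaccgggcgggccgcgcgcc
Aars, the alanyl-tRNA synthetase, read 11.87, 11.72, 11.68, 11.47 and 12.20 against 11.07 to 11.45 with a median of 11.27 and rose by 0.51 ± 0.11 (adjusted p = 0.00262). Tars, the threonyl-tRNA synthetase, rose by 0.52 ± 0.10, from 8.94 to 9.45 to 9.70 to 9.90 (adjusted p = 0.00133). Asns, asparagine synthetase, rose by 0.33 ± 0.05, from 12.04 to 12.26 to 12.38 to 12.62 (adjusted p = 0.000267). None of these 3 overlapped between the groups.

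Among the proteins of both kinds of ribosome, nearly all changes were increases. Of 45 cytosolic ribosomal protein genes, 26 were higher and 1 lower (57.8% against 11.4%), the median was 0.21, and 23 were higher without overlap (7.42% of all genes). Without nontransgenic 4 and 6 there were 24 and 0, and with only the 11 arrays fitted 17 and 0. With array weights 4 were lower. The 1 lower member was lost without dNLS bigenic 5, and without nontransgenic 5 there were 2. Rpl14 read 8.80, 8.90, 8.99, 9.23 and 8.76 against 7.66 to 7.86 with a median of 7.79 and rose by 1.16 ± 0.09 (adjusted p = 1.38e-07). Rps19 read 13.23, 13.19, 13.13, 13.15 and 13.01 against 11.05 to 12.72 with a median of 12.33 and rose by 0.97 ± 0.21, or by 0.67 without nontransgenic 4 and 6, which were its 2 lowest controls. Rplp0, of the ribosomal stalk, rose by 0.68 ± 0.09 (adjusted p = 4.84e-05) and Rps9 by 0.52 ± 0.15 (adjusted p = 0.015, or 0.11 with only the 11 arrays fitted), and neither overlapped. Ribosomal protein genes have many processed pseudogenes, and reads of those by a probe set cannot be told apart from the genes.

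The mitochondrial ribosome showed 26 higher and 2 lower of 70 genes (37.1% higher against 11.4% of all genes, median 0.22), with 20 higher without overlap (7.42% of all genes). Without dNLS bigenic 1, 2, 3 or 5, or nontransgenic 1, 2 or 4, the count of lower members was 0 or 1, and with array weights it was 6. Mrps11 read 9.87, 9.87, 10.12, 9.96 and 10.06 against 6.61 to 9.68 with a median of 8.77, and nontransgenic 6 was lowest by a wide gap. It rose by 1.37 ± 0.37 (adjusted p = 0.0132) and by 0.87 without nontransgenic 4 and 6. Mrps31 rose by 0.77 ± 0.11 (adjusted p = 7.54e-05) without overlap. Mrpl19 and Mrpl54 rose by 0.89 ± 0.21 and 0.86 ± 0.16 (adjusted p = 0.00597 and 0.00103). The overlap of Mrpl54 came from nontransgenic 4, at 7.07, and that of Mrpl19 from nontransgenic 5, at 9.54.

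Of 72 genes of the respiratory chain and ATP synthase, 18 were higher and 9 lower (25% and 12.5%, against 11.4% and 12.6% of all genes), with a median of 0.02. The share of lower members was thus close to that of all genes, and 15 were lower with array weights. Without nontransgenic 4 and 6, 19 were higher and 12 lower. Atp5g1, a membrane subunit of ATP synthase, read 13.09, 13.04, 13.09, 13.07 and 13.11 against 12.03 to 12.72 with a median of 12.39 and rose by 0.72 ± 0.09 (adjusted p = 2.54e-05). Ndufa2, of complex I, read 12.09, 12.22, 12.11, 12.16 and 12.36 against 12.51 to 12.90 with a median of 12.66 and fell by 0.47 ± 0.07 (adjusted p = 0.000164). Neither overlapped.

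The proteasome and the lysosome are the main routes of protein breakdown. Of 47 proteasome genes, 17 were higher and 4 lower (36.2% and 8.51%, against 11.4% and 12.6% of all genes, median 0.09), and 16 and 7 without nontransgenic 4 and 6. With only the 11 arrays fitted 7 were higher, with nontransgenic mice of both lines as controls 10, and with array weights 9 were lower. The higher count was 9 to 11 without dNLS bigenic 1, 2, 3 or 4 or nontransgenic 4. Psmd1, a subunit of the regulatory particle, read 11.91, 11.87, 11.95, 11.90 and 11.84 against 9.94 to 11.77 with a median of 11.32, and its lowest controls were nontransgenic 4 and 6. The difference was 0.84 ± 0.24 (adjusted p = 0.0198) and 0.43 without these 2, and it was not past the threshold without nontransgenic 4 alone (adjusted p = 0.0515). Of 39 lysosomal genes, 9 were higher and 2 lower (23.1% and 5.13%, median 0.09, and 14 and 4 with array weights), and 1 was lower without dNLS bigenic 2 or 4 or nontransgenic 3, 4 or 5.

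Single lysosomal enzymes changed by more than the list as a whole. Gla, alpha-galactosidase, read 5.68, 5.55, 4.98, 5.54 and 5.70 against 3.21 to 3.37 with a median of 3.23, a wide gap, and rose by 2.23 ± 0.18 or 4.67-fold (adjusted p = 3.43e-07). Neu1, a sialidase, read 9.67, 9.58, 9.61, 9.29 and 9.38 against 7.95 to 8.67 with a median of 8.45 and rose by 1.11 ± 0.11 (adjusted p = 3.89e-06). Ctsd, the protease cathepsin D, read 12.58, 12.62, 12.58, 12.58 and 12.61 against 11.30 to 12.06 with a median of 11.96 and rose by 0.73 ± 0.16 (adjusted p = 0.00261). Ids, iduronate sulfatase, went the other way, at 7.47, 7.75, 7.75, 7.75 and 7.64 against 8.17 to 8.92 with a median of 8.42, and fell by 0.76 ± 0.12 (adjusted p = 0.000281). The groups did not overlap in these 4 genes.

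In the list of 23 chaperones of the endoplasmic reticulum and unfolded protein response genes, 2 were higher and 6 lower (8.7% and 26.1%, against 11.4% and 12.6% of all genes), with a median of -0.24, and the count without nontransgenic 4 and 6 was the same. Without nontransgenic 5, and with array weights, 4 were higher, and without nontransgenic 1, 10 were lower. Creld2, induced by stress of the endoplasmic reticulum, read 8.68, 8.39, 8.36, 7.96 and 8.60 against 8.97 to 10.31 with a median of 9.65 and differed by -1.28 ± 0.29 (adjusted p = 0.00424). Pdia6, a protein disulfide isomerase, read 9.22, 9.37, 9.34, 9.15 and 9.26 against 9.87 to 10.23 with a median of 9.97 and differed by -0.76 ± 0.12 (adjusted p = 0.00018). Syvn1, the ubiquitin ligase that removes misfolded proteins from that compartment, was higher, at 7.04, 6.91, 6.96, 7.07 and 6.76 against 5.99 to 6.54 with a median of 6.24 (0.72 ± 0.14, adjusted p = 0.00148). None of the 3 overlapped.

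Of 22 heat shock and J-domain chaperone genes, 9 were lower and 2 higher (40.9% lower against 12.6% of all genes, median -0.15). The lower count was 6 without nontransgenic 4 and 6 and after centring, 5 with array weights and with nontransgenic mice of both lines as controls, 4 with only the 11 arrays fitted and 3 with the mean of all probe sets of a gene. Hspb1, a small heat shock protein, read 5.10, 5.10, 5.10, 5 and 6.06 against 6.08 to 9.30 with a median of 8.04. Only dNLS bigenic 5 came close to the lowest control, nontransgenic 5, and the difference was -2.65 ± 0.57 (adjusted p = 0.00271, or 0.0764 with nontransgenic mice of both lines as controls). Dnaja1, a J-domain partner of Hsp70, read 12.29, 12.24, 12.37, 12.25 and 12.19 against 12.73 to 13.07 with a median of 12.85 and differed by -0.62 ± 0.05 (adjusted p = 2.56e-07). Stip1, which links Hsp70 to Hsp90, was higher, at 11.70, 11.90, 11.75, 11.65 and 11.75 against 10.52 to 11.33 with a median of 11.26 (0.60 ± 0.12, adjusted p = 0.00135), with nontransgenic 6 the lowest control by a wide gap.

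TDP-43 is an hnRNP, and the hnRNP and SR families are regulators of splicing. Of 37 genes, 15 were lower and 2 higher (40.5% lower against 12.6%, median -0.21). The lower count fell by more than 1.5 times under several alternatives, to 9 after centring and with the mean of all probe sets, to 8 without dNLS bigenic 3, dNLS bigenic 5 or nontransgenic 4 and with the beta-actin difference as a covariate, and to 5 with only the 11 arrays fitted. Without nontransgenic 4 and 6 it was 10. Hnrnpm read 10.74, 10.74, 10.69, 10.50 and 10.63 against 10.86 to 12.07 with a median of 11.25, with nontransgenic 4 and 6 the highest. It differed by -0.74 ± 0.17 with and -0.47 without these 2 (adjusted p = 0.00489 and 0.00146), and did not overlap. Srsf4 differed by -0.69 ± 0.15 (adjusted p = 0.00229), from 10.89 to 11.77 to 10.42 to 10.99, with overlap. Srsf5 and Syncrip were the 2 higher members. Syncrip read 11.68, 11.66, 11.74, 11.58 and 11.43 against 10.61 to 11.13 with a median of 10.89 and rose by 0.71 ± 0.10 (adjusted p = 5.64e-05, or 0.4 for the mean of its probe sets). Srsf5 read 13.10, 13.15, 13.13, 13.10 and 12.99 against 10.54 to 12.82 with a median of 12.31, with nontransgenic 6 far below the rest, and differed by 0.98 ± 0.29 (adjusted p = 0.0223) and 0.58 without nontransgenic 4 and 6. Without dNLS bigenic 5 its adjusted p was 0.0553 and the list had 1 higher member.

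Of 27 RNA-binding proteins typical of neurons, 6 were higher and 5 lower (22.2% and 18.5%, against 11.4% and 12.6% of all genes), with a median of -0.06, and with only the 11 arrays fitted 2 and 3. The higher count was 3 without dNLS bigenic 1, 2, 3 or 4 and 2 without nontransgenic 4, and the lower count was 8 without nontransgenic 5. Nova1, a splicing regulator of inhibitory synapse genes, read 6.90, 6.48, 6.55, 6.61 and 7.51 against 8.66 to 9.98 with a median of 9.28 and fell by 2.41 ± 0.27 with a wide gap (adjusted p = 1.13e-05). Its other probe set lay near the lowest value and differed by -0.05. Fxr2, a relative of the fragile X protein, read 10.75, 10.31, 10.46, 10.24 and 10.29 against 9.4 to 9.95 with a median of 9.60 and rose by 0.75 ± 0.10 (adjusted p = 3.25e-05). Cpeb3, a regulator of translation at synapses, rose by 0.94 ± 0.22 with overlap through dNLS bigenic 5 and nontransgenic 5 (adjusted p = 0.0057).

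The machinery of transport through the nuclear pore held 10 higher and 6 lower of 47 genes (21.3% and 12.8%, against 11.4% and 12.6% of all genes), with a median of 0.00, and 11 and 6 without nontransgenic 4 and 6. With only the 11 arrays fitted 4 were higher, and with array weights 10 were lower. Without nontransgenic 5, 10 were lower. Xpot, the exporter of tRNA, read 9.84, 9.81, 9.74, 9.77 and 9.64 against 10.37 to 11.24 with a median of 10.59 and fell by 0.88 ± 0.12 (adjusted p = 6.91e-05). Pom121, a membrane nucleoporin, read 11.08, 10.76, 10.87, 10.83 and 10.70 against 11.31 to 12 with a median of 11.50 and differed by -0.71 ± 0.10 (adjusted p = 0.000124). Tnpo1, the importer transportin that carries hnRNPs, read 10.59, 10.73, 10.79, 10.69 and 10.50 against 10.97 to 11.84 with a median of 11.20 and differed by -0.68 ± 0.13 with and -0.49 without nontransgenic 4 and 6 (adjusted p = 0.000785 and 3.02e-05). None of the 3 overlapped.

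Of 23 genes linked to amyotrophic lateral sclerosis or frontotemporal dementia, 3 were higher and 6 lower (13% and 26.1%, against 11.4% and 12.6% of all genes), with a median of 0.04. After centring, and with only the 11 arrays fitted, 3 were lower, and without nontransgenic 5, and with array weights, 7 were higher. Kif5a, a kinesin of axonal transport, read 9.73, 9.93, 9.90, 9.78 and 10.31 against 7.32 to 8.65 with a median of 8.12, a rise of 1.91 ± 0.24 or 3.77-fold without overlap (adjusted p = 3.16e-05). The C9orf72 gene, whose repeat expansion is a cause of both diseases, read 11.14, 11.05, 11.23, 11.24 and 11.08 against 9.82 to 10.66 with a median of 10.31 and rose by 0.84 ± 0.12 (adjusted p = 6.54e-05). Pfn1, profilin, rose by 0.56 ± 0.15 (adjusted p = 0.0111, or 0.072 with only the 11 arrays fitted). Unc13a, a synaptic vesicle priming protein, read 10.46, 10.49, 10.70, 10.43 and 10.55 against 10.88 to 11.58 with a median of 11.12 and differed by -0.64 ± 0.10 (adjusted p = 0.000218). None of the 4 overlapped.

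**Figure D3:**
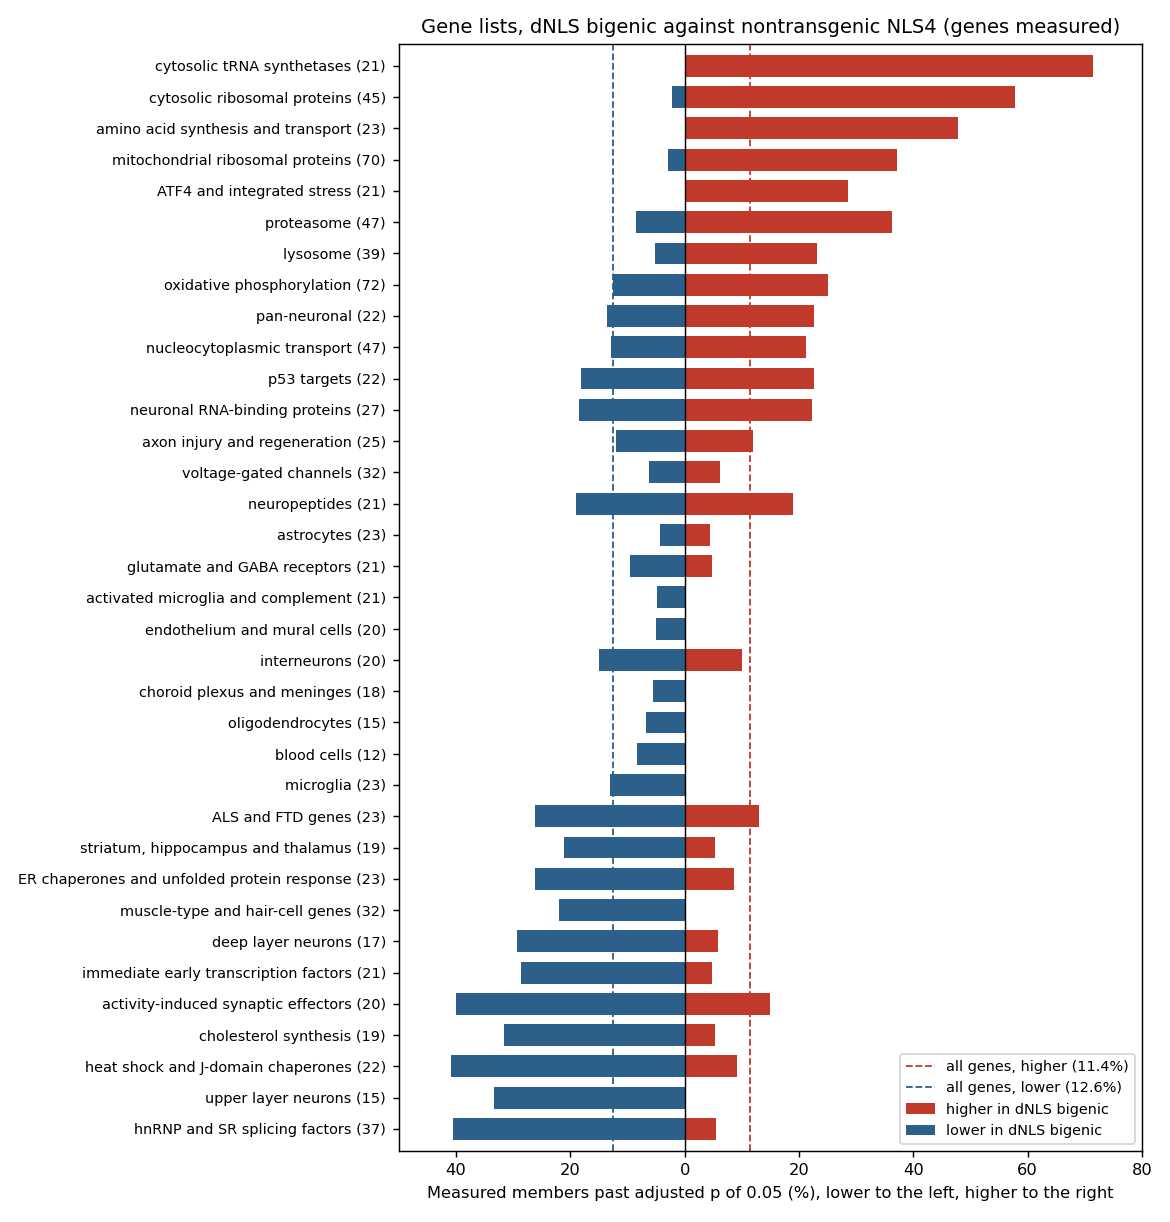
Bars give the percent of the measured members of each list that passed an adjusted p of 0.05, higher in the dNLS bigenic cortex to the right in red and lower to the left in blue, with the number measured in brackets and dashed lines at the 11.4% and 12.6% of all genes. Cytosolic tRNA synthetases reach 71.4% higher, and hnRNP and SR splicing factors 40.5% lower, a count of 15 that was 5 with only the 11 arrays fitted.

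Several genes that mark layers of cortical neurons were lower, while general neuronal genes went both ways. In these bulk samples fewer cells of a type and less RNA per cell cannot be told apart. Of 15 upper layer genes, 5 were lower and 0 higher (33.3% lower against 12.6% of all genes, median -0.15), 3 were lower with the mean of all probe sets, and without nontransgenic 5 1 was higher. Of 17 deep layer genes, 5 were lower and 1 higher (29.4% lower, median -0.15), with 4 lower without nontransgenic 4 and 6, 3 after centring, and 2 higher without dNLS bigenic 4. Of 22 pan-neuronal genes, 5 were higher and 3 lower (22.7% and 13.6%, against 11.4% and 12.6% of all genes, median 0.13, but -0.09 without nontransgenic 4 and 6), and 3 were higher without dNLS bigenic 5 or nontransgenic 4 and with only the 11 arrays fitted, and 6 were lower with the beta-actin difference as a covariate.

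Wfs1, the wolframin protein of the endoplasmic reticulum, read 9.70, 9.92, 9.64, 10.34 and 10.48 against 11.41 to 11.86 with a median of 11.69 and fell by 1.61 ± 0.13 (adjusted p = 2.94e-07). With Lamp5 and Calb1, given above, and Cux1, a homeobox factor of upper layers that differed by -0.76 ± 0.14 (adjusted p = 0.000977, or 0.355 for the mean of its probe sets), it makes up the upper layer genes of largest change past the threshold, and none of the 4 overlapped. Kcnip2, of the same list, differed more in its means and the other way, but did not pass the threshold. Its mean was 6.12 in the dNLS bigenic and 3.97 in the nontransgenic mice. In deep layers, Rprm, a cell cycle regulator of layer 6 neurons, read 9.73, 10.26, 9.92, 10.37 and 10.71 against 11.86 to 12.20 with a median of 11.93 and fell by 1.75 ± 0.12 (adjusted p = 9.68e-08). Crym, a thyroid hormone-binding crystallin, read 9.38, 9.82, 9.84, 10.11 and 9.74 against 10.64 to 10.95 with a median of 10.79 and differed by -1 ± 0.16 (adjusted p = 0.00022). Bcl6, a repressor of transcription, differed by -0.66 ± 0.15 (adjusted p = 0.00494, or 0.0557 for the mean of its probe sets), from 11.06 to 12.07 to 10.74 to 10.88. Sox5, a factor of deep layer neurons, was higher, at 6.69, 6.48, 6.36, 6.27 and 6.23 against 3.36 to 6.01 with a median of 5.09, and rose by 1.45 ± 0.33 with and 1.06 without nontransgenic 4 and 6 (adjusted p = 0.00398 and 0.000384). The groups did not overlap in any of these 4 genes.

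The summed linear level of the upper layer genes was 22400 to 23320 in the dNLS bigenic arrays and 33040 to 36170 in the nontransgenic arrays. For the deep layer genes it was 27100 to 28940 against 34850 to 38120. Both differences gave p = 0.00216 in the exact permutation test (adjusted p = 0.0108), the smallest that 462 splits allow, and in both the groups were apart. The lists were chosen with earlier results of these data known, so these p-values are not independent support. A linear sum weighs bright genes most. In the upper layer list, Lamp5, Calb1 and Wfs1 had nontransgenic means of 12.65, 12.86 and 11.66. Their dNLS bigenic means were 11.35, 11.96 and 10.02. The median difference of that list was only -0.15, and 5 of its 15 members had a positive difference. The pan-neuronal sum was 129800 to 142500 against 107600 to 146800 (exact permutation p = 0.322). Of the layer genes, 4 of 15 upper and 2 of 17 deep ones had a mean under 4 in both groups, among them Rorb, Foxp2 and Syt6, while others such as Tbr1, at a mean of 11.66 in the dNLS bigenic and 11.91 in the nontransgenic group, were bright in both. Genes of striatum, hippocampus and thalamus were present too, and their sum was 10770 to 18220 in the dNLS bigenic against 19470 to 27700 in the nontransgenic arrays (exact permutation p = 0.00216, adjusted p = 0.0108). Wfs1 and Calb1, which the upper layer list also holds, made up 65.9% of this difference in means. Without these 2, in a sum added after the data were seen, the groups overlapped, at 6206 to 12660 against 9402 to 15870.

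**Figure D4:**
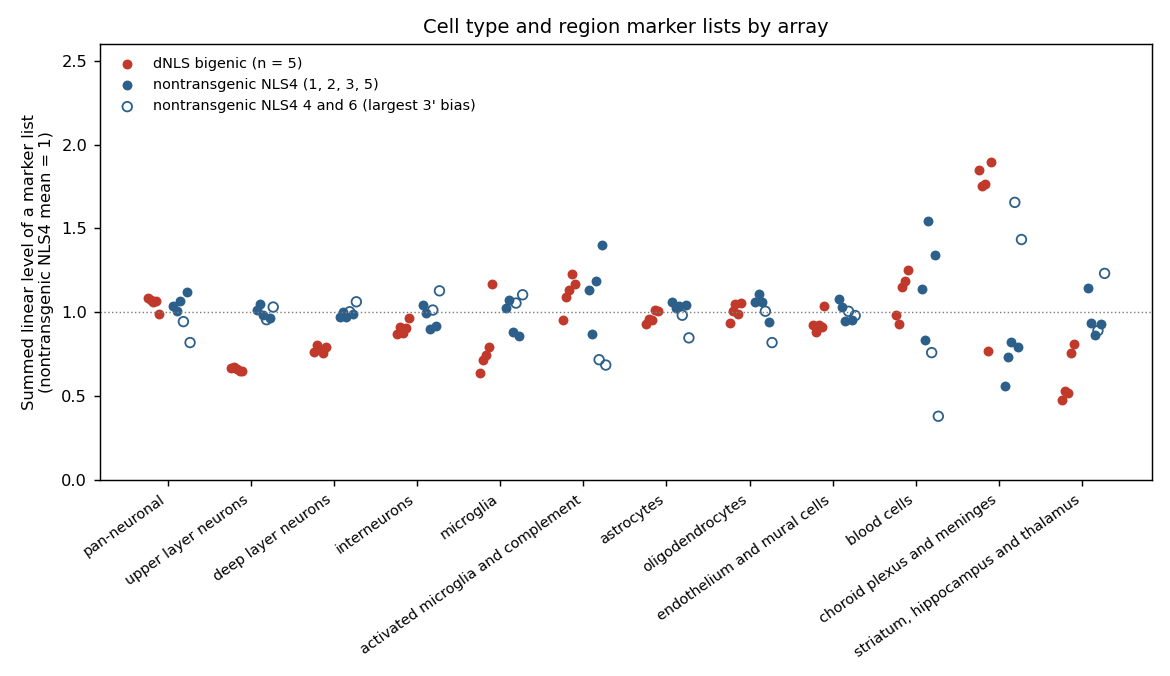
Each point is the summed linear level of a marker list on 1 array, divided by the mean of the 6 nontransgenic arrays, with dNLS bigenic in red, nontransgenic in blue and open circles for nontransgenic 4 and 6. The upper layer, deep layer and striatum, hippocampus and thalamus lists are apart between the groups, the last of them through Wfs1 and Calb1, and the pan-neuronal list, at 129800 to 142500 against 107600 to 146800 before division, is not.

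In that regional list, 4 of 19 genes were lower and 1 higher (21.1% lower against 12.6% of all genes), with 3 at the lowest value throughout and a median of -0.27. Wfs1 and Calb1, which also mark upper layers, were among the 4. Slc17a6, the vesicular glutamate transporter of thalamus, read 8.93, 9.23, 9.11, 9.46 and 9.33 against 10.63 to 11.23 with a median of 10.74 and fell by 1.59 ± 0.13 (adjusted p = 4.36e-07). Neurod1, a factor of hippocampal granule cells and other excitatory neurons, read 8.26, 7.90, 8.52, 8.17 and 8.45 against 9.21 to 9.64 with a median of 9.48 and fell by 1.21 ± 0.12 (adjusted p = 2.13e-06). The part that the extent of the dissection may have in the layer results was not tested.

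Pan-neuronal genes are proteins that most neurons share. Ina, the neurofilament alpha-internexin, read 13.27, 13.19, 13.26, 13 and 13.12 against 11.80 to 12.75 with a median of 12.61 and rose by 0.64 ± 0.12 (adjusted p = 0.000677), and Nefl, the light neurofilament, read 12.40, 12.48, 12.42, 12.37 and 12.31 against 12.55 to 13.01 with a median of 12.89 and fell by 0.43 ± 0.08 (adjusted p = 0.000719). These 2 genes moved in opposite directions without overlap. Rbfox3, the neuronal splicing factor NeuN, differed by 0.71 ± 0.21 (adjusted p = 0.0227) with nontransgenic 4 and 6 as its lowest controls, and by 0.36 without them. Uchl1, a deubiquitinating enzyme, differed by 0.55 ± 0.17 (adjusted p = 0.0234) and by 0.30 without them. Both calls were lost without dNLS bigenic 5 (adjusted p = 0.0617 and 0.0522) and without nontransgenic 4 alone (0.0592 and 0.0596).

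Neuronal activity induces a first wave of transcription factors and a later one of synaptic effectors. Of 21 immediate early transcription factors, 6 were lower and 1, Atf3, higher (28.6% lower against 12.6% of all genes, median -0.44), with 0 higher without dNLS bigenic 5, with only the 11 arrays fitted and with males only. Jun read 10.21, 10.55, 10.34, 10.39 and 10.34 against 10.88 to 11.30 with a median of 11.12 and differed by -0.74 ± 0.08 (adjusted p = 4.57e-06) without overlap. Srf, the serum response factor that drives this class, read 9.80, 9.65, 9.70, 9.66 and 9.66 against 9.94 to 10.66 with a median of 10.28 and differed by -0.60 ± 0.12 (adjusted p = 0.00141), but the mean of its probe sets did not pass (adjusted p = 0.228). Of 20 later effector genes of synapses, 8 were lower and 3 higher (40% and 15%, median -0.19), and 5 were lower with males only. Nptx2, a pentraxin that gathers AMPA receptors, read 7.98, 8.52, 8.4, 6.81 and 7.81 against 9.35 to 10.57 with a median of 9.96 and fell by 2.09 ± 0.33 (adjusted p = 0.000211). Ccn1, a matrix protein, read 7.56, 7.45, 8.12, 5.14 and 6.10 against 7.49 to 9.63 with a median of 8.95, overlapping through nontransgenic 5, and differed by -2.09 ± 0.52 (adjusted p = 0.00764). Pcsk1, a convertase of peptide precursors, differed by -1.74 ± 0.41 (adjusted p = 0.00529), from 4.27 to 6.47 to 3.25 to 4.06. Gadd45b, a stress sensor, rose, at 9.39, 8.93, 8.97, 9.11 and 8.45 against 6.38 to 7.97 with a median of 7.5 (1.52 ± 0.30, adjusted p = 0.00155).

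Of 21 neuropeptide genes, 4 were higher and 4 lower (19% each, against 11.4% and 12.6% of all genes), with a median of 0.00, and 2 were lower with only the 11 arrays fitted or with males only. Cartpt, the precursor of the CART peptide, read 6.33, 6.55, 6.52, 6.84 and 6.31 against 7.77 to 8.71 with a median of 8.05 and fell by 1.67 ± 0.23 without overlap (adjusted p = 5.83e-05). Pnoc, the precursor of nociceptin, read 6.85, 7.26, 6.68, 7.66 and 7.20 against 5.68 to 6.91 with a median of 6.19 and rose by 0.91 ± 0.22 (adjusted p = 0.00541), with dNLS bigenic 1 and 3 below the highest control. Cort, cortistatin, rose by 0.78 ± 0.20 (adjusted p = 0.00975) with overlap, and Chga, chromogranin A, by 0.60 ± 0.11 (adjusted p = 0.000549). Interneuron genes had 2 higher and 3 lower of 20, or 10% and 15%, near the shares of all genes, and 6 were lower with array weights. Reln and Sst, the secreted glycoprotein reelin and somatostatin, differed by -0.54 ± 0.11 and -0.52 ± 0.10 with overlap (adjusted p = 0.00223 and 0.00156), and Npy, neuropeptide Y, rose by 0.34 ± 0.06 without it (adjusted p = 0.000857). The interneuron sum was 29610 to 32720 against 30620 to 38300 (exact permutation p = 0.0455, adjusted p = 0.127).

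Few ion channel and transmitter receptor genes passed the threshold. Of 32 voltage-gated channel genes, 2 were higher and 2 lower (6.25% each, against 11.4% and 12.6% of all genes), and 6 were higher without nontransgenic 5 and with array weights. Kcnab2, a potassium channel subunit, read 12.64, 12.43, 12.45, 12.11 and 12.49 against 11.24 to 12.13 with a median of 11.88 and rose by 0.60 ± 0.14 with overlap (adjusted p = 0.00388), and Kcna2, dim in both groups, rose by 0.60 ± 0.13 (adjusted p = 0.00312). Scn3b, a sodium channel subunit, read 9.59, 10.23, 10.23, 10.29 and 10.28 against 10.60 to 10.82 with a median of 10.70 and differed by -0.58 ± 0.10 (adjusted p = 0.000672). Kcnd2, which carries A-type potassium current, differed by -0.43 ± 0.11 (adjusted p = 0.00832, or 0.0543 after centring). Of 21 glutamate and GABA receptor genes, 1 was higher and 2 lower. Grik1, a kainate receptor, read 9.23, 9.36, 9.56, 9.34 and 9.20 against 9.71 to 10.29 with a median of 9.95 and differed by -0.64 ± 0.10 (adjusted p = 0.000306), and Gria4, an AMPA receptor, rose by 0.54 ± 0.13 with overlap (adjusted p = 0.00705). The receptor counts were 2 higher without dNLS bigenic 4 or nontransgenic 1 or 2, 1 lower without dNLS bigenic 1, 2, 3 or 5 or nontransgenic 1, 2 or 3, and 4 lower without nontransgenic 6. Over all alternatives the channel list had 1 to 6 higher and 1 to 5 lower members and the receptors 0 to 2 and 1 to 5.

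How many markers of other cells passed depended on the fit. Of 23 microglial genes, 3 were lower and 0 higher (13% lower against 12.6% of all genes, median -0.29), with Sall1 and Itgam at the lowest value, and without nontransgenic 4 and 6 only 1 was lower. With array weights 9 were lower (18.7% of all genes under that fit), and with males only 10. Their summed level was 16610 to 30390 in the dNLS bigenic and 22310 to 28760 in the nontransgenic arrays. Tmem119, a membrane protein of resident microglia, read 8.30, 8.46, 8.30, 8 and 8.66 against 8.52 to 9.32 with a median of 9.02 and differed by -0.61 ± 0.16 with overlap (adjusted p = 0.00872). Gpr34, a receptor for lysophosphatidylserine, differed by -1.06 ± 0.32 (adjusted p = 0.025), and the call was lost without nontransgenic 4 and 6 (adjusted p = 0.102) and without any 1 of dNLS bigenic 1, 2, 3 or 5 or nontransgenic 2 or 4 (0.0511 to 0.0634). Cd53, a tetraspanin of leukocytes, differed by -0.52 ± 0.15 (adjusted p = 0.0167, or 0.0658 without nontransgenic 4 and 6). Of 21 genes of activated microglia and complement, 10 were at the lowest value, among them Cst7, Itgax, Clec7a, Il1b and Tnf, and 1, the lipase Lpl, was lower (-1.24 ± 0.31, adjusted p = 0.00822, or 0.0735 for the mean of its probe sets).

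Astrocyte genes had 1 higher and 1 lower of 23 (4.35% each, against 11.4% and 12.6% of all genes), and 1 and 3 without nontransgenic 4 and 6. With array weights 7 were lower (18.7% of all genes under that fit) and with males only 4. Serpina3n, a protease inhibitor of reactive astrocytes, read 4.57, 5.53, 5.61, 5.26 and 5.27 against 2.85 to 4.26 with a median of 3.23 and rose by 1.98 ± 0.39 without overlap (adjusted p = 0.0014). The highest control was nontransgenic 6. Aldh1l1, a folate enzyme of astrocytes, read 9.92, 10.17, 9.93, 9.80 and 10.35 against 10.37 to 10.83 with a median of 10.49 and differed by -0.49 ± 0.13 (adjusted p = 0.00908). The lower count was 2 without nontransgenic 3 or 5 and 4 without nontransgenic 6. The astrocyte sum was 69080 to 75180 against 62930 to 78920.

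Oligodendrocytes (15 genes), endothelium and mural cells (20), blood cells (12, of which 7 were at the lowest value, among them Hba-a1) and choroid plexus and meninges (18) each had 1 lower and 0 higher members (5% to 8.33% lower against 12.6% of all genes). With array weights the lower counts were 6, 8, 1 and 5, where 18.7% of all genes were lower under that fit. With males only they were 3, 3, 0 and 0, where 1535 of the 12393 genes were lower. Each of these counts was 0 without dNLS bigenic 1, 2 or 3 or nontransgenic 1, the choroid plexus and meninges count also without nontransgenic 4 and 6 together, and the endothelial count was up to 4 without nontransgenic 5. The choroid plexus and meninges sum was 8735 to 21580 in the dNLS bigenic arrays, where dNLS bigenic 4 was low, and 6368 to 18850 in the nontransgenic arrays, where nontransgenic 4 and 6 were high. The part of these cells in the results above was not tested.

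Of 19 cholesterol synthesis genes, 6 were lower and 1 higher (31.6% lower against 12.6% of all genes, median -0.12), and the 1 higher member was lost without nontransgenic 4 and 6 and without any 1 of dNLS bigenic 1 to 4 or nontransgenic 2 or 6. Fdft1, squalene synthase, read 10.33, 10.50, 10.43, 10.37 and 10.68 against 11.24 to 11.79 with a median of 11.57 and fell by 1.09 ± 0.12 (adjusted p = 1.16e-05). Sqle, squalene epoxidase, and Tm7sf2, a sterol reductase, differed by -0.82 ± 0.15 and -0.81 ± 0.13 (adjusted p = 0.000842 and 0.000345), and none of the 3 overlapped. Of 22 p53 targets, 5 were higher and 4 lower (22.7% and 18.2%, against 11.4% and 12.6% of all genes), with a median of -0.01. The higher count was 2 without dNLS bigenic 1 or 2 and 3 without dNLS bigenic 3 or nontransgenic 2 and with only the 11 arrays fitted, and 2 were lower with males only. Besides Pmaip1, Aen, a nuclease of apoptosis, read 12.03, 11.89, 12.03, 11.80 and 11.83 against 9.77 to 10.73 with a median of 10.49 and rose by 1.59 ± 0.18 (adjusted p = 8.12e-06), whereas Apaf1, the core of the apoptosome, read 8.14, 8.39, 8.41, 8.29 and 8.67 against 9.12 to 9.65 with a median of 9.33 and differed by -0.91 ± 0.13 (adjusted p = 0.000115).

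Of 25 genes of axon injury and regeneration, 3 were higher and 3 lower (12% each, against 11.4% and 12.6% of all genes), with a median of 0, 5 lower without nontransgenic 5 and 1 lower with only the 11 arrays fitted. Tnfrsf12a and Jun, given above, moved in opposite directions. Il6st, the shared receptor subunit gp130, read 10.77, 10.56, 10.67, 10.59 and 10.84 against 9.94 to 10.29 with a median of 10.05 and rose by 0.60 ± 0.07 (adjusted p = 2.38e-05). Socs3, an inhibitor of that receptor's signalling, was at or near the lowest value in the dNLS bigenic mice, at 2.05, 2.04, 2.05, 2.04 and 2.31, against 2.20 to 6.74 with a median of 3.69, and overlapped through dNLS bigenic 5 and nontransgenic 5. Its difference was -2.09 ± 0.59 (adjusted p = 0.0169, or 0.113 with only the 11 arrays fitted). Of 3 genes at the presumed insertion site of the tTA transgene, 0 were higher and 0 lower, and 1 was lower without dNLS bigenic 1, 2 or 3 or nontransgenic 1 or 5.

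Values of the WT bigenic and dNLS monogenic mice can be set beside those above. These comparisons use the same 5 dNLS bigenic arrays, so they are not independent of the first. Against WT bigenic mice, 1460 genes (11.8%) passed the threshold, and against dNLS monogenic mice 1851 (14.9%). Tnfrsf12a was at 6.82 ± 0.38 (mean ± SD, n = 5) in the dNLS bigenic mice, 4.12 ± 0.74 (n = 4) in the WT bigenic, 3.45 ± 0.14 (n = 4) in the dNLS monogenic and 3.64 ± 0.43 (n = 6) in the nontransgenic mice. The dNLS bigenic mice differed from the WT bigenic by 2.68 ± 0.33 and from the dNLS monogenic by 3.37 ± 0.31 (adjusted p = 7.08e-05 and 2.02e-06). For Spag5 the differences were -3.78 ± 0.37 and -4.28 ± 0.34 (adjusted p = 8.77e-06 and 6.34e-07).

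Some leading genes were intermediate in the WT bigenic mice. Otof was at 3.78 ± 1.01 there, between 2.17 ± 0.25 in the dNLS bigenic and 6.66 ± 1.16 in the nontransgenic mice, and Susd2 was at 2.94 ± 0.36, against 2.27 ± 0.10 and 5.99 ± 0.85. Pmaip1 was at 6.60 ± 1.74, with a wide spread, against 8.06 ± 0.76 and 5.02 ± 0.87. The differences of the dNLS bigenic from the WT bigenic mice were -1.48 ± 0.61, -0.78 ± 0.48 and 1.59 ± 0.73 for these 3 genes (adjusted p = 0.151, 0.416 and 0.208). Clcn5, Tmem192 and Prr15 also did not pass against the WT bigenic mice, nor against the dNLS monogenic mice. Of the 21 tRNA synthetase genes, 10 were higher against WT bigenic and 12 against dNLS monogenic mice, with 0 lower in either. Of all genes 11.8% and 14.9% passed in these 2 comparisons, in either direction. At its main probe set, Atf4 differed by 0.70 ± 0.18 and 0.94 ± 0.16 (adjusted p = 0.017 and 0.000762).

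**Figure D5:**
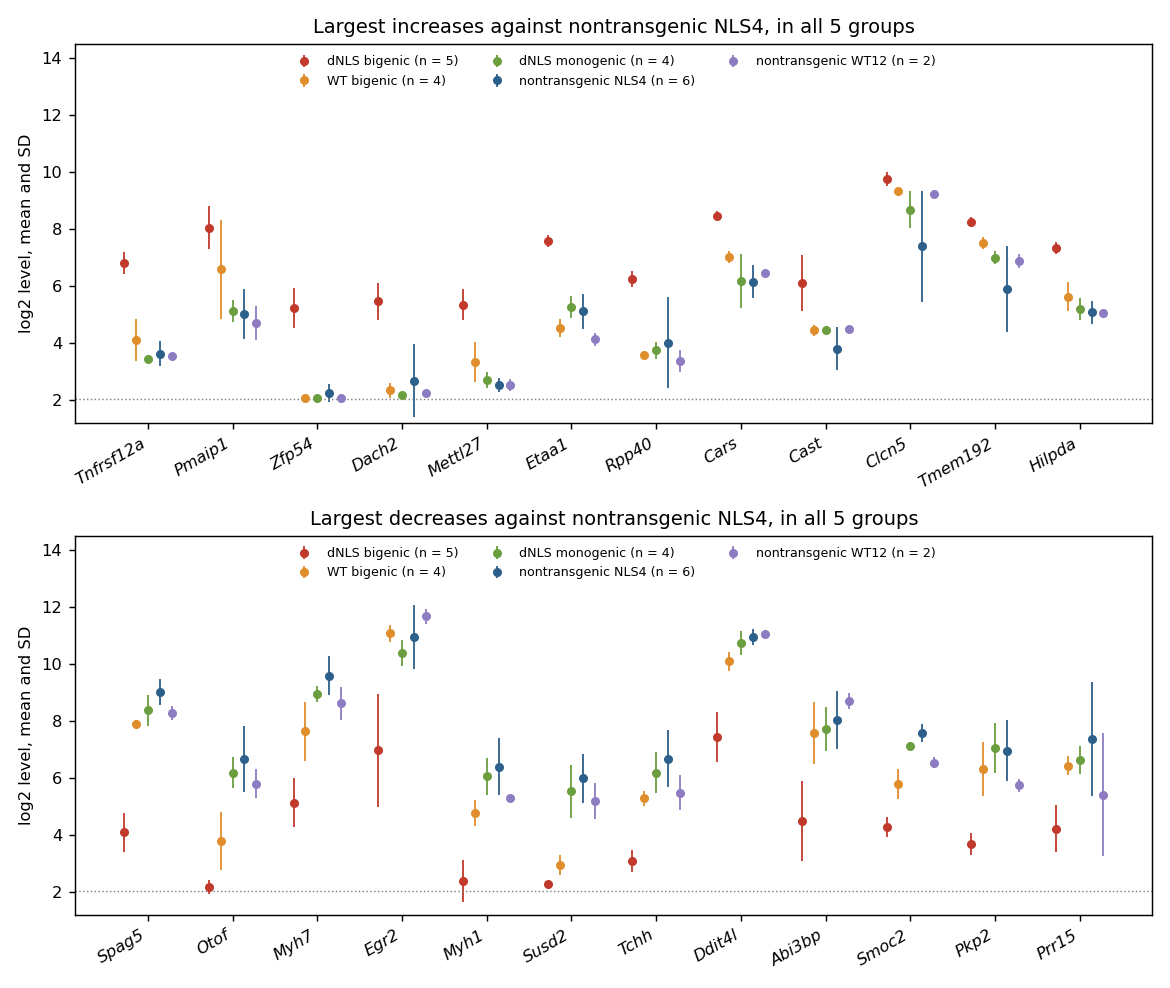
Mean log2 level with its SD in all 5 groups is plotted for the 12 largest increases (upper panel) and decreases (lower panel) of the comparison with nontransgenic NLS4 mice, with a dotted line at the lowest value of 2.04. For Otof and Susd2 the WT bigenic mean lies between those of the dNLS bigenic and the other groups, and for Spag5 it lies far above the dNLS bigenic mean.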

How the data were processed

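Total RNA from the cerebral cortex of single mice was copied from its poly(A) tail, amplified linearly with biotin in a single cycle and hybridised to Affymetrix MOE430A 2.0 arrays, and all RNA had an integrity number of at least 7, per the labels' protocols. The authors deposited a table of log2 levels for 22690 probe sets. No source names the base of the logarithm, which was inferred from their span of 2.04 to 15.1. Partek is named in the submitters' processing notes without a version or a role, and for background correction and normalization the method is not given in the sources used here. Changes toward the common lowest value, held by 30.7% to 32.4% of probe sets on an array, are understated, and precision is limited by how few arrays there are.

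Probe sets were named with the platform's table of probe genes. After 64 control probe sets were set aside, 20380 had 1 symbol, 691 several and 1555 none, and only the first class was used. Of its Entrez identifiers 20351 matched RefSeq (GRCm38.p6) and 29 did not, and 0 symbols changed. For 4956 of the 12393 genes there were several probe sets, and that with the highest mean of all 21 arrays stood for the gene.

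Groups followed the titles and the line in the labels. All 21 arrays entered a linear model of 5 groups with a term for sex, by lmFit and eBayes and an intensity trend (limma 3.58.1, R 4.3.3), so differences are adjusted for sex and can depart slightly from differences of means. Benjamini-Hochberg adjustment ran over all genes, with a threshold of 0.05. Differences between probe sets of a gene come from the same model over all probe sets. Values of a single quantity per array were tested by two-sided exact permutation, adjusted over 15 measures. The procedure was tested on simulated data of independent normal values with known changes in a part of the genes. Those data held no outlying array, 3′ bias or common lowest value, so the test does not cover these conditions. The 37 gene lists are described by their counts and medians, with no set test. The groups compared and the lists were chosen with earlier results of these data known.

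The rule for named genes took the 12 largest increases and decreases past the threshold, the 10 largest moderated t in each direction, the 4 largest changes past the threshold in each list, and always Tardbp. The text names part of these genes. Names outside the rule are given as such. Alternatives were other normalizations, covariates, arrays, controls, variance models, filters and probe set rules, and leaving out each array in turn.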

Additional observations from a re-analysis of the deposited data

Results flagged for a closer look

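Among 302 groups of values examined (both groups of each named gene), 34 held 1 array whose gap to its nearest neighbour was large for the range of its group. The cut-off is meant to flag about 1 in 20 groups by chance, a rate that was not tested in these data. Of these, 13 were nontransgenic 6 and 4 were nontransgenic 4, the 2 arrays with the largest 3′ to 5′ difference of beta-actin. Nontransgenic 6 was high for Dach2 (5.29), Rpp40 (7.25), Chac1 (8.56), Atf3 (2.24), Shmt1 (5.80), Xpot (11.24) and Serpina3n (4.26). It was low for Mettl27 (2.05), Atf4 (11.05), Rars (9.70), Stip1 (10.52), Ina (11.80) and Ctsd (11.30). Nontransgenic 4 was high for Tnfrsf12a (4.51), Rnf5 (10.09), Atf5 (8.93) and Gla (3.37). Their values are left in the report's means and tests, and for only some of these genes is the fit without both arrays given beside them.

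Other nontransgenic arrays stood apart for single genes. Nontransgenic 5 was low for Hcn3 (2.05) and Ccn1 (7.49) and high for Myl4 (11.09), nontransgenic 1 was low for Vars (2.51), and nontransgenic 2 was low for Gadd45b (6.38).

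In the dNLS bigenic group, mouse 5 was above the others for Otof (2.62), Myh1 (3.69), Hspb1 (6.06) and Socs3 (2.31), and below them for Tm7sf2 (6.48). Mouse 4 was high for Plbd2 (9.63) and Zfp60 (3.52) and low for Atf5 (8.72). Mouse 3 was low for Susd2 (2.09) and Gla (4.98) and high for Myl4 (9.39), and mouse 1 was low for Scn3b (9.59).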

How the results depend on the processing

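The count of genes past the threshold was 2980 and ranged from 1841 to 4380 over the alternatives. It moved by more than 1.5 times only with the 11 arrays compared fitted alone (1841), and leaving out 1 array gave 2535 to 3757, the highest without nontransgenic 5. The count without overlap was 1765, 2436 without nontransgenic 4 and 6, and 1815 to 2455 without 1 array. Of 150 genes named, 149 passed, 111 of these kept direction and call under every alternative that tested them (23 or all 24), and 8 lost the call without at least 1 array. Itsn2 reversed under the mean of its probe sets (0.0725, adjusted p = 0.68). With the 11 arrays alone, calls that the report does not already give as lost were lost for Eda (adjusted p = 0.0524), Shc3 (0.076), Zfp60 (0.147), Chac1 (0.0909), Atf3 (0.0887), Cort (0.0772), Sox5 (0.0525), Rbfox3 (0.14), Uchl1 (0.129), Kcna2 (0.0511), Gria4 (0.0655), Srsf5 (0.122), Hnrnpm (0.0535), Mrps11 (0.104), Mrpl19 (0.0676) and Psmd1 (0.13). With the beta-actin difference as a covariate, Prr15 (0.0547), Socs3 (0.122), Gpr34 (0.16), Cd53 (0.0691), Zfp60 (0.0656) and Ccn1 (0.05) were lost. With males only, Atf3 (0.185), Shc3 (0.13), Gria4 (0.122), Kcnd2 (0.111), Eda (0.089) and Zfp60 (0.0794) were lost. So were Tardbp (0.0676), Ccdc159 (0.0561), Ccn1 (0.0543), Shmt1 (0.0526) and Mrpl54 (0.051). The mean of all probe sets of a gene also lost Tardbp (0.351) and Kcnd2 (0.353). Nontransgenic mice of both lines as controls also lost Pcsk1 (0.068) and Srsf5 (0.068). In these losses the direction stayed. No paired analysis was possible because the labels give the mice no numbers shared between groups. No group carried tTA alone, the normalization is unknown, and levels near 2.04 are bounds, so differences of dim genes are understated. Smaller differences than those named could be hidden by the spread of 11 arrays.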
